A study of Mus musculus with 6 samples.

Results

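The kinesin motor family was followed through mouse macrophages under 3 conditions: M-CSF, the lipopeptide FSL-1, and the combination of FSL-1 and nutlin-3a. Members were the genes whose symbol begins with Kif followed by a digit, measured by probe sets annotated with exactly 1 gene. This gave 38 of the 22180 genes measured, on 41 probe sets. For the 3 genes with more than 1 probe set (Kif5b, Kif7 and Kif27), the brightest one, by its mean across the 6 arrays, stands for the gene. A further probe set that names Kif3c together with another gene was left out. The members were divided by their known roles into 12 mitotic kinesins, 13 transport kinesins and 13 others. The mitotic genes as a group were already known to fall in these data, so the division is not independent of earlier results.

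Bone marrow cells of C57Bl/6 mice had been grown for 5 days in 20 ng/ml M-CSF, the growth factor that turns monocyte precursors into macrophages. The resulting macrophages then spent 6 days with M-CSF at 50 ng/ml, with FSL-1 at 20 ng/ml, or with that dose of FSL-1 plus nutlin-3a at 10 µM. Each condition has 2 arrays. FSL-1 mimics a bacterial diacylated lipopeptide and stimulates the receptor pair of TLR2 and TLR6, and the series design describes the FSL-1 cells as multinucleated giant cells. Nutlin-3a occupies the pocket of Mdm2 that holds p53, so that p53 escapes degradation. All groups share the M-CSF preculture. The sources used here give neither whether M-CSF was still present with FSL-1 nor the gate of the sort that preceded RNA extraction. No label states that replicates are different cultures or mice; the p-values thus measure only the spread between these arrays, which may be technical.

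Kinesins are ATP-driven motors that use microtubules as tracks. Most walk toward the plus end and carry vesicles, organelles or protein complexes away from the cell centre. Another set works on the mitotic spindle: these motors push the spindle poles apart, hold or move chromosomes, shorten microtubule ends, and build the central spindle and midbody on which cytokinesis depends. Genes of that second set are switched on mainly in the G2 and M phases of dividing cells, whereas cargo motors are used throughout interphase. Mature macrophages divide when M-CSF drives them to, and they use microtubule motors to move phagosomes, endosomes, lysosomes and podosome components.

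All values are log2 levels after RMA, as deposited, where a difference of 1 is a 2-fold change. Replicate arrays correlated at 0.9929 to 0.9951 over all genes. The median level of probe sets without a gene name, 4.25, serves as a guide to the dim end of the scale, since the background itself is not known. The 8 macrophage markers had a mean level of 11.25 to 11.37 (M-CSF), 11.34 to 11.44 (FSL-1) and 11.09 to 11.15 (with nutlin-3a), and 0 of the 8 lay below that guide on all arrays. Among them Csf1r, the M-CSF receptor, fell with FSL-1 (log2 change -0.87, adjusted p = 0.00858, limma), the integrin gene Itgam rose (0.74, adjusted p = 0.00987), and the Fc receptor gene Fcgr1 fell with nutlin-3a (-1.58, adjusted p = 0.00228). The lists for neutrophils, fibroblasts, lymphocytes, dendritic cells, and erythroid and mast cells had mean levels between 3.95 and 5.24 on every array. Of their measured genes, Camp, Lum, Ms4a1, Cpa3 and Mcpt8 lay below 4.25 on every array. The fibroblast genes Col1a1 and Col1a2 were brighter, at 6.46 to 7.43 and 5.47 to 6.54 over the 6 arrays. The neutrophil gene S100a8 rose with FSL-1, from a mean of 4.19 to 6.60 (limma, adjusted p = 0.000825). The fibroblast gene Col1a2 fell with nutlin-3a (log2 change -0.80, adjusted p = 0.0292), and the dendritic cell gene Ccr7 rose with FSL-1 by 0.65 (adjusted p = 0.0208). The part of these other cells in the kinesin results was not tested. All 4 p53 targets listed as a check rose with nutlin-3a (background 2.38% higher), among them Mdm2 by 0.77 (adjusted p = 0.0113), Cdkn1a by 0.61 (adjusted p = 0.0431) and Phlda3 by 1.28 (adjusted p = 0.0012). Mdm2 had already risen with FSL-1 against M-CSF, by 0.88 (adjusted p = 0.00566), and the other 3 did not pass there.

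Mitotic kinesins fell in steps from M-CSF to FSL-1 to FSL-1 + nutlin-3a, whereas changes of transport kinesins lay between -0.67 and 0.65 on the log2 scale in all 3 comparisons. Of the 12 mitotic members, 10 fell and 0 rose with FSL-1 against M-CSF, with a median log2 change of -0.81 beside -0.01 over all genes. The background for a call of a lower level in that comparison was 2.95% of all genes. With nutlin-3a added, 9 of 12 fell and 0 rose (background 4.12%), with a median of -1.35 beside 0.02. Over the whole path from M-CSF to FSL-1 + nutlin-3a, 11 of 12 fell and 0 rose (background 4.94%), with a median of -2.13 beside 0.02. In 11 of the 12, both M-CSF arrays lay above both FSL-1 arrays, and these above both FSL-1 + nutlin-3a arrays. That order without overlap was found in 4.68% of all genes, in 0 of 13 transport kinesins and in 1 of 13 others. Calls in either direction made up 6.86%, 6.5% and 9.51% of all genes in the 3 comparisons. Both arrays of the later group lay below both of the earlier one in 12, 11 and 11 mitotic members, beside 25.6%, 23.7% and 24.2% of all genes. The FSL-1 arrays take part in both steps, so the steps are not independent. In bulk RNA, fewer dividing cells and less mRNA per cell cannot be told apart.

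**Figure D1:**
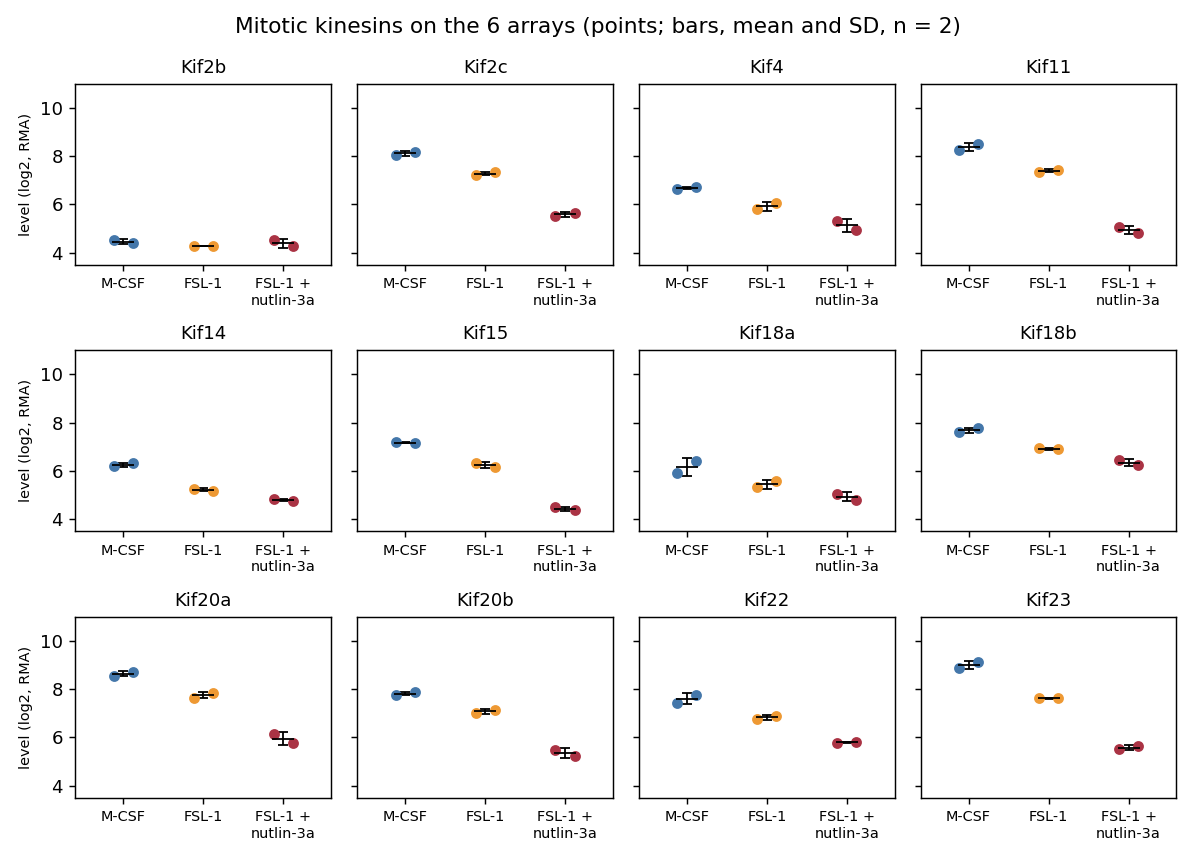
Levels of the 12 mitotic kinesins (vertical axis, log2 after RMA) in M-CSF, FSL-1 and FSL-1 + nutlin-3a; points are single arrays, bars the mean and SD (n = 2). The points step down from left to right in every panel but that of Kif2b, which stays between 4.26 and 4.52.

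The motors that set up the spindle were among those with the widest span. Kif11, which slides antiparallel microtubules apart so that the poles separate, measured 8.26 and 8.49 in M-CSF, 7.34 and 7.44 in FSL-1, and 5.06 and 4.82 in FSL-1 + nutlin-3a (probe set 17359020). No group overlapped another. It fell 1.98-fold with FSL-1 (log2 change -0.98, SE 0.14, adjusted p = 0.00637, limma) and 5.46-fold further with nutlin-3a (-2.45, SE 0.14, adjusted p = 0.000206), 10.8-fold in all. Kif15, which helps Kif11 to hold the spindle bipolar, measured 7.19 and 7.15 in M-CSF, 6.33 and 6.15 in FSL-1, and 4.49 and 4.38 in FSL-1 + nutlin-3a (probe set 17523494). Its groups were separate as well, and the lowest arrays came close to the guide of 4.25. It fell 1.9-fold with FSL-1 (-0.93, SE 0.121, adjusted p = 0.00442) and 3.5-fold further with nutlin-3a (-1.81, SE 0.121, adjusted p = 0.000307).

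Motors of the central spindle and cytokinesis fell by sizes that differed from gene to gene. Kif23, the motor subunit of centralspindlin, measured 8.88 and 9.11 in M-CSF, 7.61 and 7.63 in FSL-1, and 5.50 and 5.64 in FSL-1 + nutlin-3a (probe set 17527934). Its drop with FSL-1, 2.59-fold (-1.38, SE 0.128, adjusted p = 0.000839), had the lowest estimate among the 38 members, and nutlin-3a lowered it 4.13-fold further (-2.05, SE 0.128, adjusted p = 0.000256). Kif20a, which brings the chromosomal passenger complex to the central spindle, measured 8.56 and 8.72 in M-CSF, 7.65 and 7.82 in FSL-1, and 6.14 and 5.75 in FSL-1 + nutlin-3a. Its log2 change was -0.90 with FSL-1 (adjusted p = 0.0149) and a further -1.79 with nutlin-3a (adjusted p = 0.00102). Kif20b, a related motor needed for the late steps of cytokinesis, measured 7.77 and 7.86 in M-CSF, 7.01 and 7.15 in FSL-1, and 5.50 and 5.22 in FSL-1 + nutlin-3a. The steps were -0.74 (adjusted p = 0.0182) and -1.72 (adjusted p = 0.000589).

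Kif14, which recruits citron kinase to the midbody, was dimmer than Kif20a, Kif20b and Kif23 in every group. Its arrays read 6.19 and 6.32 in M-CSF, 5.26 and 5.17 in FSL-1, and 4.84 and 4.77 in FSL-1 + nutlin-3a. Most of its span therefore lay in the FSL-1 step, with a change of -1.03 (SE 0.117, adjusted p = 0.00211), while the nutlin-3a step was -0.41 (95% interval -0.68 to -0.14) and did not pass (adjusted p = 0.0832). The groups were again separate.

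Of the 2 motors that ride on chromosome arms, Kif4 also binds the bundling protein Prc1 to set the length of the central spindle. It measured 6.64 and 6.72 in M-CSF, 5.80 and 6.05 in FSL-1, and 5.33 and 4.95 in FSL-1 + nutlin-3a. Both steps were of like size, -0.76 (SE 0.16, adjusted p = 0.031) and -0.78 (SE 0.16, adjusted p = 0.0299). Kif4-ps, the annotated Kif4 pseudogene, read 4.03 to 4.53 over the 6 arrays and did not pass in any comparison; probes for a gene and its pseudogene may share signal. Kif22, which pushes chromosome arms away from the poles, measured 7.44 and 7.77 in M-CSF, 6.75 and 6.90 in FSL-1, and 5.78 and 5.82 in FSL-1 + nutlin-3a. Its steps were -0.78 (adjusted p = 0.0182) and -1.03 (adjusted p = 0.00648).

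The motors that act on microtubule ends split by the size of the nutlin-3a step. Kif2c, a depolymerase that corrects faulty kinetochore attachments, measured 8.03 and 8.19 in M-CSF, 7.22 and 7.32 in FSL-1, and 5.52 and 5.66 in FSL-1 + nutlin-3a. It changed by -0.84 with FSL-1 (SE 0.123, adjusted p = 0.00735) and by -1.68 with nutlin-3a (SE 0.123, adjusted p = 0.000399). Kif18b, which works together with Kif2c on astral microtubules, measured 7.60 and 7.76 in M-CSF, 6.94 and 6.89 in FSL-1, and 6.44 and 6.23 in FSL-1 + nutlin-3a. The 2 steps were -0.76 (adjusted p = 0.0128) and -0.58 (adjusted p = 0.0395). Kif18a, which damps the oscillation of chromosomes at the metaphase plate, read 5.90 and 6.42 in M-CSF, 5.32 and 5.56 in FSL-1, and 5.06 and 4.80 in FSL-1 + nutlin-3a. Its M-CSF arrays lay well apart, and neither step passed (-0.72, adjusted p = 0.0704, and -0.51, adjusted p = 0.177), but the whole path did (-1.22, SE 0.192, adjusted p = 0.00644). In FSL-1, Kif18a averaged 5.44 and Kif14 5.22. Whether these levels limited their nutlin-3a steps was not tested.

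Kif2b, a depolymerase related to Kif2c and known mainly from testis, was the mitotic member that did not pass in any comparison. It was dim on all arrays, with 4.52 and 4.38 in M-CSF, 4.28 and 4.29 in FSL-1, and 4.51 and 4.26 in FSL-1 + nutlin-3a. Its change over the whole path was -0.07 (95% interval -0.37 to 0.24), and all its arrays lay close to the guide of 4.25.

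Across all 12 mitotic members the estimates spread less in the FSL-1 step (-1.38 to -0.17) than in the nutlin-3a step (-2.45 to 0.10). The 10 members that fell with FSL-1 changed by -1.38 to -0.74 on the log2 scale, and the 9 that fell with nutlin-3a by -2.45 to -0.58. The nutlin-3a estimate was the larger decrease in 8 members (Kif2c, Kif4, Kif11, Kif15, Kif20a, Kif20b, Kif22 and Kif23), and the FSL-1 estimate in Kif14, Kif18a, Kif18b and the uncalled Kif2b. This difference between steps was not tested, and both steps use the FSL-1 arrays. Of the 10 calls with FSL-1, 7 were left when M-CSF replicate 1 was dropped and 5 when replicate 2 was. Dropping FSL-1 replicate 1 left 3 (Kif14, Kif15 and Kif23), and dropping FSL-1 replicate 2 left 5. Of the 9 calls with nutlin-3a, dropping either FSL-1 array left 7 or 6, and dropping either nutlin-3a array left 8 or 7. The calls lost there were those of Kif18b, Kif4 and Kif22. Kif18b also lost its nutlin-3a call when either M-CSF array was dropped. The count of 11 over the whole path stayed at 11 without any 1 of the 6 arrays.

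A promoter motif that did not enter the choice of genes was also searched for in the members. Many genes of the G2 and M phases carry, near their start, a cell cycle genes homology region, a short element to which MuvB-based complexes bind; such complexes repress these genes in resting cells and after p53 activation and activate them in dividing cells. RefSeq promoter windows (GRCm38.p6, 250 bases before to 50 after a gene's start) were searched for TTTGAA on both strands, which reads TTCAAA on the gene's strand when reversed, and for TTCGAA, which reads the same on both strands. Windows were at hand for 11 of 12 mitotic members (not Kif20a), and 9 of these 11 held the motif: Kif2c, Kif4, Kif11, Kif14, Kif15, Kif18b, Kif20b, Kif22 and Kif23. The windows of Kif2c and Kif14 lie inside these genes and may not be their main promoters. Of all 32851 windows, 19.2% held it. Within 50 bases of the start on either side, it was found in 7 of the 11, beside 5.31% of all windows. Among transport kinesins 1 of 12 windows held the motif, that of an internal Kif1a start. Among the others 3 of 12 windows did, those of Kif24, Kif26b and an internal start of Kif27. The matches of Kif1a, Kif24 and Kif26b lay within 50 bases of the start. Over the whole path Kif1a rose by 0.65, Kif24 changed by -0.59, and Kif26b changed by 0.08 without passing. Some genes have 2 windows, so windows outnumber genes. Windows were at hand for 10 of 13 transport members (not Kif5a, Kif5b and Kif13b) and for 10 of 13 others. The windows of Kif3a and Kif26a, which held no match, start 1668 and 2234 bases inside these genes and may not be their main promoters either. These are matches of letters, not binding sites.

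The windows below show where the motif sits at the 7 mitotic starts and then at Kif24. They are followed by 2 starts without a match for contrast, Kif18a from the mitotic class and Kif1c from the transport class. The windows of Kif1a and Kif26b, which also hold a match near the start, are not shown. Each window shown is 90 bases, 60 before and 30 after the start, written 5′ to 3′ on the gene's strand, and capitals mark the motif.
Kif11, chr19:37376322-37376411, plus strand: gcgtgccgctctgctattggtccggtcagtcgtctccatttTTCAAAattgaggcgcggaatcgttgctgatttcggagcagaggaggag
Kif15, chr9:122951021-122951110, plus strand: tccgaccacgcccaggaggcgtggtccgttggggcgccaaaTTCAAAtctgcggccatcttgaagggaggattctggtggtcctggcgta
Kif22, chr7:127042391-127042480, minus strand: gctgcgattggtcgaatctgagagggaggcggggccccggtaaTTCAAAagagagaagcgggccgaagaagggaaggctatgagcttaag
Kif23, chr9:61946770-61946859, minus strand: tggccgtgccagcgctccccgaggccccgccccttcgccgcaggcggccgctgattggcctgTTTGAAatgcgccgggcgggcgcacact
Kif18b, chr11:102925095-102925184, minus strand: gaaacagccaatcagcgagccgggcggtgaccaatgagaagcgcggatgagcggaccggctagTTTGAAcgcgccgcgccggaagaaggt
Kif20b, chr19:34922298-34922387, plus strand: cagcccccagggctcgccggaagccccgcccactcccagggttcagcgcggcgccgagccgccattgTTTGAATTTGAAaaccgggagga
Kif4, chrX:100626005-100626094, plus strand: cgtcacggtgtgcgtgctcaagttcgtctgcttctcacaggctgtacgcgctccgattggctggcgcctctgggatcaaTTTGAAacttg
Kif24, chr4:41464819-41464908, minus strand: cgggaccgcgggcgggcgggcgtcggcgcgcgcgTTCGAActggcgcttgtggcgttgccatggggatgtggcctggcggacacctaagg
Kif18a, chr2:109280678-109280767, plus strand: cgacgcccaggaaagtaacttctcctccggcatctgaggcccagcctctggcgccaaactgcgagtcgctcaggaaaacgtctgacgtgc
Kif1c, chr11:70700488-70700577, plus strand: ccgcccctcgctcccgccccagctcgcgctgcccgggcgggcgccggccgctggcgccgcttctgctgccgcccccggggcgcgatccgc

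Counted from the start, the motif begins at position -19 in Kif11 and Kif15 and at -17 in Kif22, on the reverse strand in all of these. In Kif23, Kif18b and Kif4 it lies just after the start, beginning at base 3, 4 and 20. Kif20b carries 2 copies end to end, at bases 8 and 14. The matches of Kif14 and Kif2c lie farther away, at positions -228 and -103 from starts that the table places 1547 and 3852 bases inside these genes. The motifs were not related to expression by any test.

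**Figure D2:**
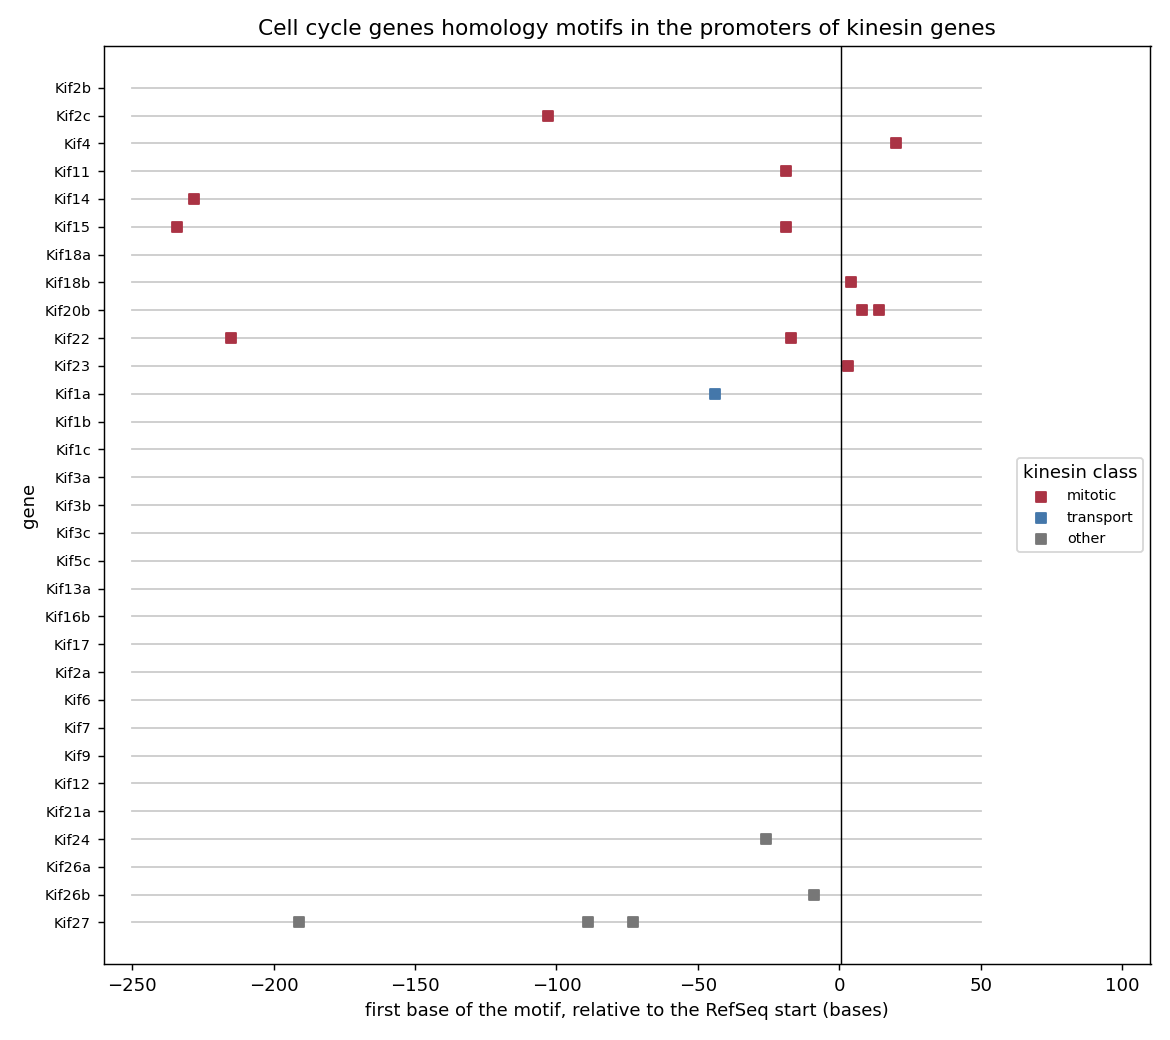
Position of the first base of each motif match (squares, coloured by kinesin class) along the promoter windows of the members that have one, from 250 bases before to 50 after the RefSeq start (vertical line); grey lines are the windows searched, with several starts of a gene drawn on 1 line. In the mitotic class 7 of 11 genes have a match within 50 bases of the start. In the transport class 1 of 10 genes does, and among the others 2 of 10.

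Transport kinesins gave fewer and smaller changes. With FSL-1 against M-CSF, 2 of 13 fell and 0 rose, with a median change of -0.01 (background 2.95% lower and 3.91% higher). With nutlin-3a, 1 of 13 fell and 0 rose, with a median of 0.07 (background 4.12% lower and 2.38% higher). Over the whole path 3 rose and 1 fell, with a median of 0.12 (background 4.58% higher and 4.94% lower). The estimates of the class lay between -0.67 and 0.65. Both later arrays lay above both earlier ones in 3, 6 and 6 of the 13, beside 24.6%, 27.2% and 27.3% of all genes. They lay below both earlier ones in 4, 1 and 4, beside 25.6%, 23.7% and 24.2%. At an unadjusted p under 0.05 in limma, 2 members were higher and 3 lower with FSL-1, beside 10.7% and 10.5% of all genes. With nutlin-3a, 6 were higher and 1 lower at that threshold, beside 10.4% and 10.8%. Over the whole path 6 were higher and 2 lower, beside 11.9% for each.

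**Figure D3:**
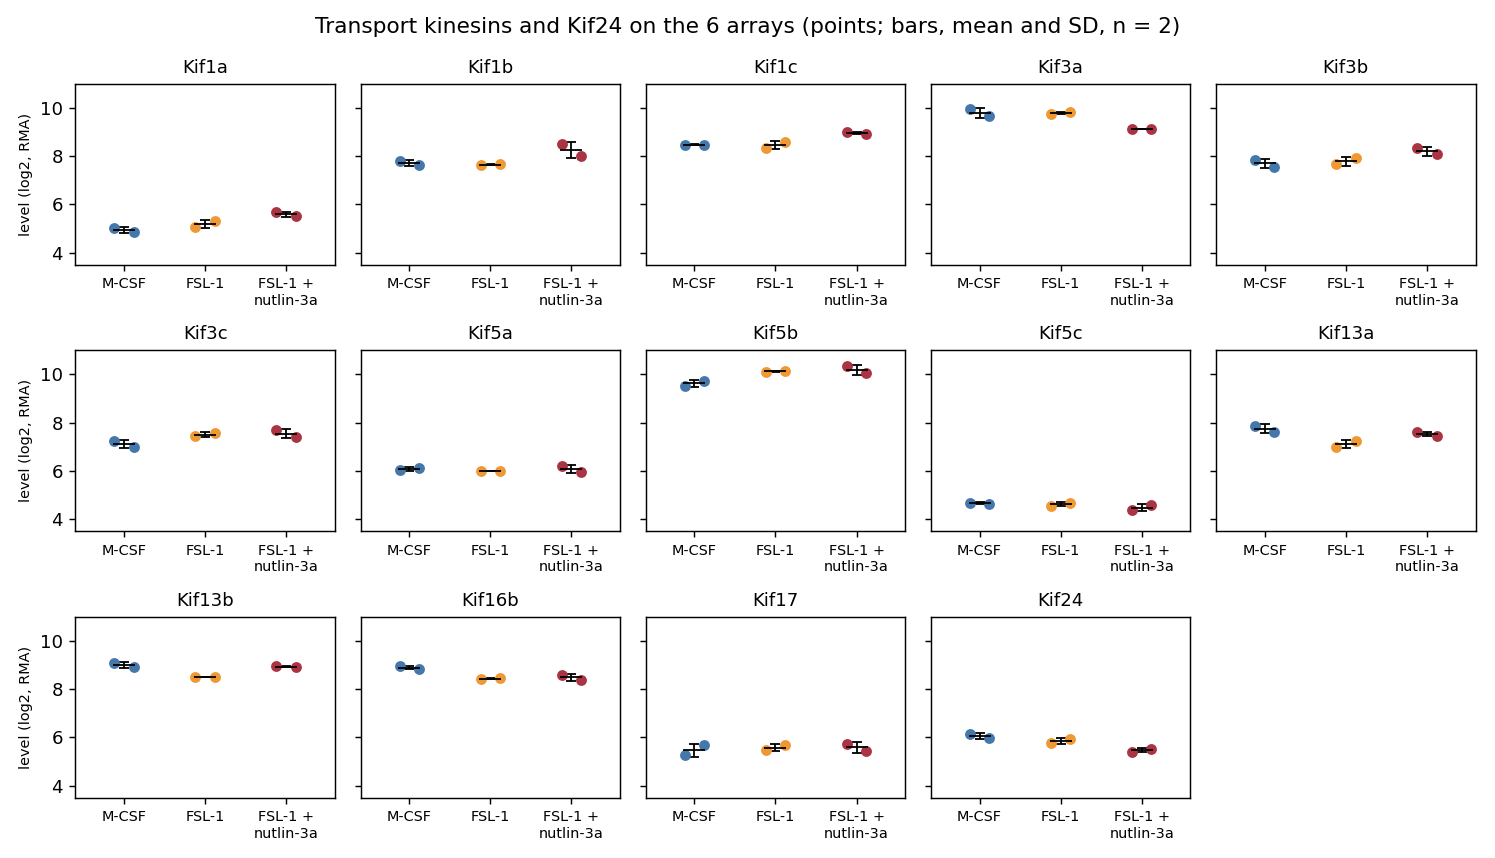
Levels of the 13 transport kinesins and of Kif24 (vertical axis, log2 after RMA) in the 3 groups; points are single arrays, bars the mean and SD (n = 2). Kif3a and Kif24 are lowest with nutlin-3a, Kif1a, Kif1b and Kif1c are highest there, Kif5b is lowest in M-CSF, and Kif13a and Kif13b are lowest in FSL-1.

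Kinesin-1, the conventional heavy chain that carries lysosomes, mitochondria and other cargo, has 3 genes. Kif5b, the form made in all tissues, measured 9.53 and 9.72 in M-CSF, 10.11 and 10.14 in FSL-1, and 10.34 and 10.04 in FSL-1 + nutlin-3a. Both treated groups lay above M-CSF and overlapped each other. It rose 1.48-fold over the whole path (0.57, SE 0.14, adjusted p = 0.0431), while the FSL-1 step alone did not pass (0.51, 95% interval 0.18 to 0.83, adjusted p = 0.0765). Its other probe set was dim, between 3.92 and 4.36, and differed by -0.14 over the whole path. With both probe sets averaged, the change of Kif5b was 0.21 and did not pass. The neuronal forms were flat. Kif5a read 6.02 and 6.13 in M-CSF, 6.01 and 6.01 in FSL-1, and 6.21 and 5.97 in FSL-1 + nutlin-3a. Kif5c read 4.69 and 4.63, 4.55 and 4.67, and 4.38 and 4.57 in the same order.

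Kinesin-2 motors, which pair Kif3a with Kif3b or Kif3c and serve transport in cilia and of late endosomes, did not move together. Kif3a measured 9.93 and 9.64 in M-CSF, 9.75 and 9.83 in FSL-1, and 9.12 and 9.12 in FSL-1 + nutlin-3a. It was level in the first groups and fell 1.6-fold with nutlin-3a (-0.67, SE 0.132, adjusted p = 0.0261). Its partner Kif3b measured 7.82 and 7.56 in M-CSF, 7.66 and 7.93 in FSL-1, and 8.32 and 8.07 in FSL-1 + nutlin-3a, where both arrays were above the others. That change with nutlin-3a, 0.40 (95% interval 0.04 to 0.76), did not pass (adjusted p = 0.187). Kif3c read 7.22 and 7.00 in M-CSF, 7.43 and 7.57 in FSL-1, and 7.67 and 7.42 in FSL-1 + nutlin-3a, and did not pass either (0.44 over the whole path, adjusted p = 0.103). Kif17, a homodimeric kinesin-2 known from dendrites, measured 5.28 and 5.67 in M-CSF, 5.47 and 5.67 in FSL-1, and 5.74 and 5.44 in FSL-1 + nutlin-3a, with all groups overlapping.

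The kinesin-3 cargo motors differed in their course. Kif1c, which in human macrophages regulates podosomes, measured 8.48 and 8.45 in M-CSF, 8.35 and 8.56 in FSL-1, and 8.99 and 8.93 in FSL-1 + nutlin-3a. It stood apart in the nutlin-3a group and rose over the whole path (0.50, SE 0.122, adjusted p = 0.0423), whereas the nutlin-3a step itself did not pass (0.50, 95% interval 0.22 to 0.79, adjusted p = 0.0519). Kif1b, a carrier of mitochondria and synaptic vesicle precursors, read 7.81 and 7.64 in M-CSF, 7.64 and 7.65 in FSL-1, and 8.50 and 8.02 in FSL-1 + nutlin-3a. The nutlin-3a arrays were the highest but lay apart, and the step of 0.61 did not pass (adjusted p = 0.0764). Kif1a, its neuronal relative, was low, with 5.02 and 4.86 in M-CSF, 5.08 and 5.31 in FSL-1, and 5.67 and 5.51 in FSL-1 + nutlin-3a. It rose over the whole path by 0.65 (SE 0.135, adjusted p = 0.0227).

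Among the endosomal motors of this group, Kif13a and Kif13b were lowest in FSL-1. Kif13a, which drives recycling endosomes, measured 7.87 and 7.61 in M-CSF, 7.00 and 7.22 in FSL-1, and 7.60 and 7.46 in FSL-1 + nutlin-3a. It fell 1.54-fold with FSL-1 (-0.63, SE 0.144, adjusted p = 0.0414). Kif13b, its close relative, measured 9.10 and 8.90 in M-CSF, 8.50 and 8.51 in FSL-1, and 8.96 and 8.91 in FSL-1 + nutlin-3a. It fell 1.41-fold with FSL-1 (-0.49, SE 0.12, adjusted p = 0.0498), just inside the threshold. In both genes the nutlin-3a arrays lay above the FSL-1 arrays, by 0.42 and 0.43, without passing (adjusted p = 0.139 and 0.0805). Kif16b, which moves early endosomes, measured 8.94 and 8.85 in M-CSF, 8.41 and 8.46 in FSL-1, and 8.59 and 8.38 in FSL-1 + nutlin-3a, and its change with FSL-1 did not pass (-0.45, adjusted p = 0.0721). Its FSL-1 and nutlin-3a arrays overlapped, with a change of 0.05 between them.

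None of the transport calls held in every alternative. The FSL-1 count of 2 (Kif13a and Kif13b) became 0 when any 1 of the 6 arrays was dropped, when the third group was left out of the fit, and with the replicate number as a block. Dropping any 1 of the FSL-1 or nutlin-3a arrays ended the nutlin-3a call of Kif3a. Over the whole path Kif3a lost its call when M-CSF replicate 1 or 1 of the nutlin-3a arrays was dropped, Kif1a without any 1 of the 4 compared arrays, and Kif1c without any 1 of the 6. Kif5b lost it without any array but FSL-1 + nutlin-3a replicate 2. With the replicate number as a block the count of 3 that rose was 1.

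Of the 13 other members, 1 passed, with a fall over the whole path, beside 4.94% of all genes that fell there. Kif24, a centriolar kinesin that holds back the growth of cilia, measured 6.15 and 5.97 in M-CSF, 5.78 and 5.94 in FSL-1, and 5.41 and 5.53 in FSL-1 + nutlin-3a. It stepped down without overlap and fell over the whole path (-0.59, SE 0.128, adjusted p = 0.0258), but neither step passed by itself (-0.21, adjusted p = 0.434, and -0.39, adjusted p = 0.127). Dropping any 1 of the M-CSF or nutlin-3a arrays ended this call. At an unadjusted p under 0.05 in limma, 2 of the 13 were lower with FSL-1, beside 10.5% of all genes. With nutlin-3a, 2 were higher and 1 lower, beside 10.4% and 10.8%. Over the whole path 2 were higher and 1 lower, beside 11.9% for each. The remaining 12 were not called in any comparison by limma. They include Kif2a, a depolymerase of interphase cells and spindles, which read 7.74 to 8.08, and Kif21b, which limits microtubule growth, at 7.77 to 8.33. Kif9, which in human macrophages acts at podosomes, read 5.80 to 6.57. The cilium motors Kif7, Kif19a and Kif27 and the kinesins Kif6, Kif12, Kif21a, Kif26a and Kif26b lay between 3.85 and 6.25 on all arrays. Changes of the 13 others over the whole path ranged from -0.59 to 0.33, with a median of 0.08.

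**Figure D4:**
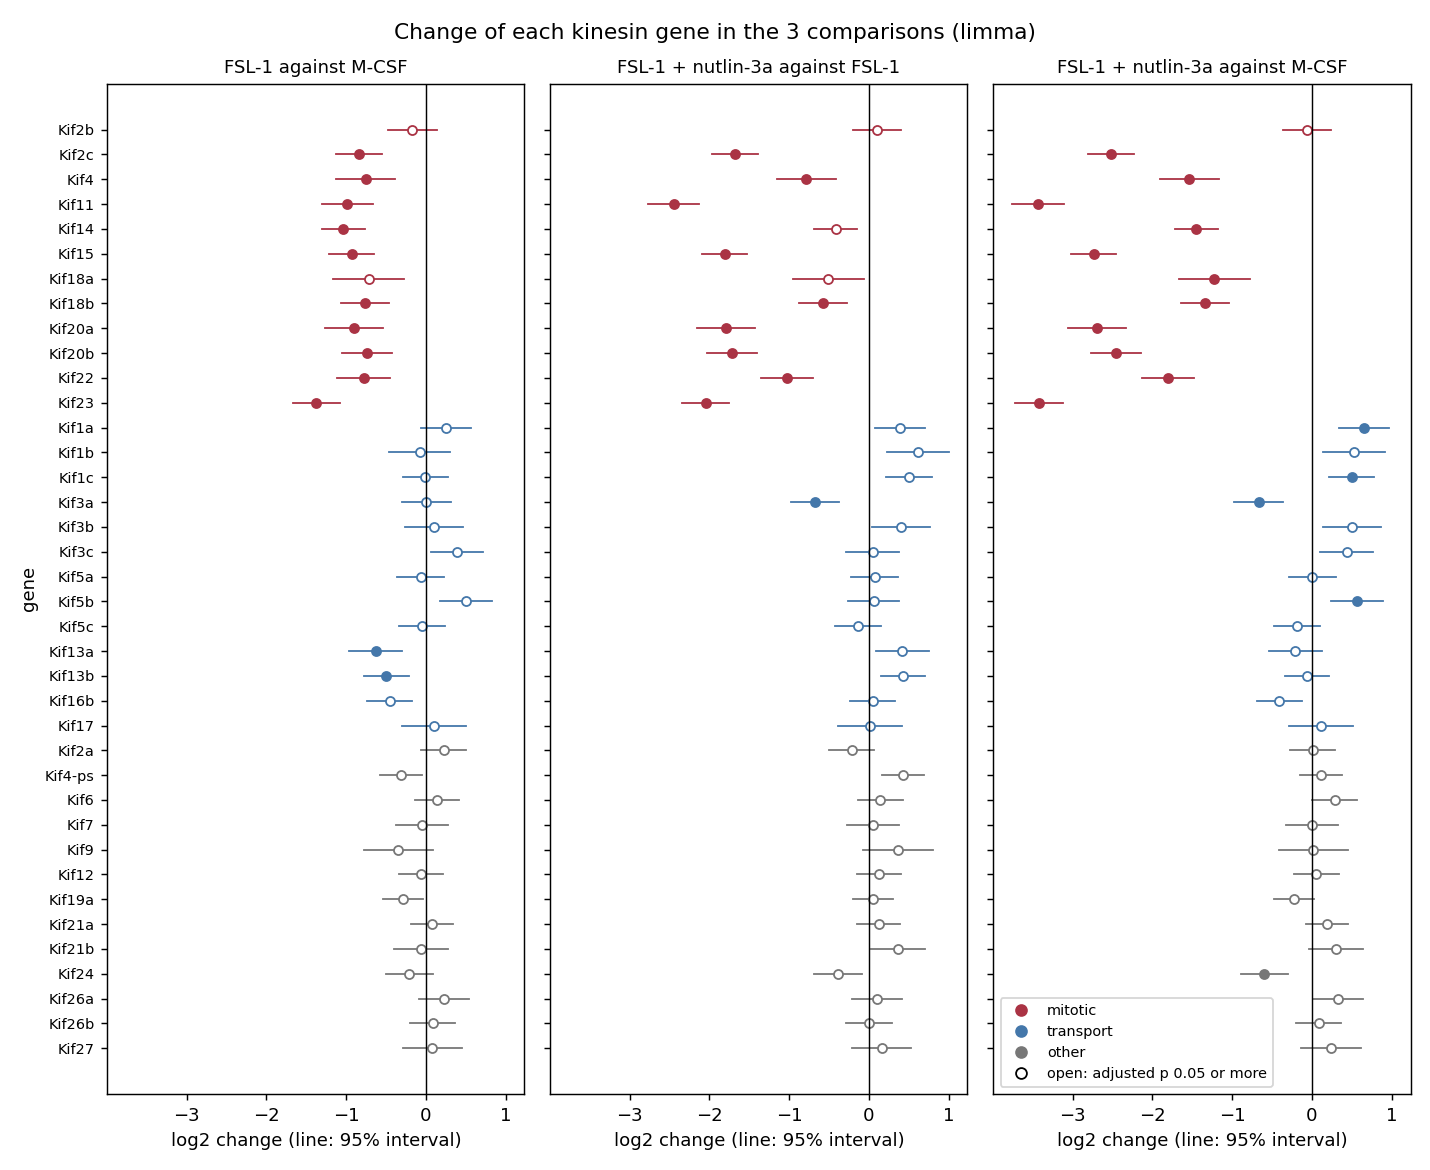
Log2 change (horizontal axis) of all 38 members in the 3 comparisons, with 95% intervals from limma; filled points passed an adjusted p of 0.05, and colours mark the class. Mitotic members lie to the left of 0 in all panels except for Kif2b, with estimates down to -3.43 for Kif11 and -3.42 for Kif23, while transport and other members stay between -0.67 and 0.65.

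Motors and partners outside the naming pattern were compared as lists. Cenpe, the kinetochore kinesin that carries chromosomes to the spindle equator, averaged 8.12 (M-CSF), 7.44 (FSL-1) and 6.06 (with nutlin-3a). It changed by -0.68 with FSL-1 (adjusted p = 0.0264) and by -1.38 with nutlin-3a (adjusted p = 0.00169). Kifc1, a minus-end motor that focuses spindle poles, averaged 6.07, 5.67 and 4.93, and fell with nutlin-3a by 0.74 (adjusted p = 0.0367) but did not pass with FSL-1 (-0.40, adjusted p = 0.202). Kifc5b is a closely related gene, and probe signal of the pair may not be separable. Kifc2, Kifc3 and Kifc5b did not pass in any comparison.

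Genes whose products work with the mitotic motors were compared next. Of 15 measured genes of that list, 9 fell with FSL-1 and 15 with nutlin-3a, and 0 rose in either, beside 2.95% and 4.12% of all genes that fell. The medians were -0.70 and -1.56, beside -0.01 and 0.02 over all genes. With FSL-1, Tpx2, Aurka, Incenp, Cdca8, Cit and Cdk1 did not pass. Plk1, the mitotic kinase that docks on Kif20a, had the smallest p with FSL-1 (-0.86, adjusted p = 0.00572), and Ect2, which centralspindlin recruits for cytokinesis, with nutlin-3a (-2.02, adjusted p = 0.00027). Racgap1, the partner of Kif23 in centralspindlin, fell in both steps (-0.84 and -1.83), as did Prc1, the partner of Kif4 (-0.89 and -2.03). Tpx2, which brings Kif11 and Kif15 to the spindle, fell with nutlin-3a by 1.70 and did not pass with FSL-1 (-0.34, adjusted p = 0.163). Mki67, a marker of cycling cells, averaged 10.19 under M-CSF, 8.96 under FSL-1 and 7.39 with nutlin-3a (adjusted p = 0.00735 and 0.00293 for the steps), and its part in the kinesin results was not tested.

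The counts for partners of the cargo motors stand beside a background of 2.38% to 4.94% of all genes per direction and comparison. Of 12 measured kinesin light chains and adaptors, 0 passed in any of the 3 comparisons by limma after adjustment. At an unadjusted p under 0.05, 2 were lower and 1 higher with FSL-1, beside 10.5% and 10.7% of all genes. With nutlin-3a, 3 were higher and 0 lower, beside 10.4% and 10.8%. Over the whole path 2 were higher and 0 lower, beside 11.9% for each. Among the light chains and adaptors Klc4, a light chain of Kif5 motors, came nearest, with -0.39 with FSL-1 (adjusted p = 0.0857) and 0.44 with nutlin-3a (adjusted p = 0.06). Of 19 genes of dynein and dynactin, the machinery for transport in the opposite direction, 1 fell with FSL-1: Dctn1, the dynactin subunit that grips microtubules, with -0.54 (adjusted p = 0.0292). With nutlin-3a 0 passed in limma, and over the whole path Bicd2, a dynein adaptor, rose by 0.67 (adjusted p = 0.013). At an unadjusted p under 0.05, 1 of the 19 was lower and 2 higher with FSL-1. The counts were 2 lower and 1 higher with nutlin-3a, and 3 lower and 1 higher over the whole path. The shares of all genes are those given above.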

How the data were processed

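Total RNA of sorted cells was amplified and labelled with NuGEN kits and hybridised to 6 arrays, per the labels' protocols. The deposited values are log2 levels, 1 per probe set and array, for which the authors used RMA and Expression Console 1.4 (both named in the submitters' processing notes). RMA equalises the distribution of values between arrays, so a change shared by most genes would be hidden. Raw intensities were not used, and precision is limited by 2 arrays a group.

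A single gene is named by 23521 of the 34390 probe sets. The resulting 22180 genes were fitted without a filter on all 6 arrays in 3 groups, with lmFit and eBayes of limma 3.58.1 (R 4.3.3; 3 residual and 4.88 prior degrees of freedom). The threshold was 0.05 after Benjamini-Hochberg adjustment over all genes. The test was checked on simulated data. The members and lists were chosen with earlier results of these data known, so lists are given as counts and medians without a set test. Values on every array are given for each mitotic and transport member and for other members that passed; of the other lists, the called gene with the smallest p in each direction was named, with Cenpe, Kifc1, Mki67, Mdm2 and Cdkn1a. Racgap1, Prc1, Tpx2, Aurka, Incenp, Cdca8, Cit, Cdk1 and Klc4 were named after their values were seen. Klc2, Ccnb1 and some listed marker genes are not analysed here. Motif positions count from 1 at the start, with no base 0.

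The alternatives changed the variance model (trend and robust), the normalization (quantiles repeated, or medians centred), the treatment of genes with several probe sets (averaged), the filter (dim genes removed), the arrays fitted (only the 2 groups compared, or each array dropped in turn, where a lone array is assumed to vary like the others), the gene lists, and the pairing (replicate number as block).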

Additional observations from a re-analysis of the deposited data

How the results depend on the processing

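None of the 38 called changes of kinesins turned sign in any alternative; 20 kept their call in all of them and 18 lost it in 1 or more. Of the 76 changes that did not pass, 28 turned sign in 1 or more alternatives, the largest of them 0.16 in size; among mitotic members this was Kif2b, which ran from -0.024 to 0.231 with nutlin-3a and from -0.193 to 0.0625 over the whole path when arrays were left out.

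Calls over all genes were 1521, 1441 and 2110 in FSL-1 against M-CSF, nutlin-3a against FSL-1 and the whole path; with trend and robust they were 2744, 2658 and 3337, and with arrays left out 451 to 1299, 352 to 1212 and 1158 to 1529. When arrays were left out, the mitotic members that fell numbered 3 to 10, 6 to 8 and 11 to 11. Transport members that fell with FSL-1 (2) were 1 with centred arrays, 0 in the compared groups alone, 0 with either replicate block and 0 to 0 with arrays left out; 1 rose with trend and robust and 1 with dim genes filtered out. With nutlin-3a, 3 transport members rose with trend and robust, 1 after quantile normalization and 3 with dim genes filtered out, 1 of the others rose with that filter, and with arrays left out 0 to 1 transport members fell and 0 to 1 rose. Over the whole path 2 transport members fell with trend and robust and 2 with the filter, and 6 rose with trend and robust, 1 in the compared groups alone and 1 with the replicate block; with arrays left out 0 to 1 fell, 0 to 2 rose, and 0 to 1 of the others fell.

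With Kif2a, Kif21a, Kif21b and Kif24 added, the mitotic medians were -0.68 with nutlin-3a and -1.49 over the whole path. Without Kif1a, Kif3c, Kif5a, Kif5c and Kif17 the transport median with nutlin-3a was 0.41, and with arrays left out the transport median over the whole path ran from -0.0368 to 0.308. The shifts with changed lists follow from the values of the genes added or removed. With nutlin-3a, the added Kif2a, Kif21a, Kif21b and Kif24 changed by -0.22, 0.12, 0.37 and -0.39. The removed Kif1a, Kif3c, Kif5a, Kif5c and Kif17 changed by 0.39, 0.05, 0.07, -0.14 and 0.02 in that step.

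Arrays with the same replicate number did not deviate together (correlations of deviations -0.188, -0.0248 and 0.0175), so the numbers are not taken to pair the samples. With the replicate block, 9, 7 and 11 mitotic members fell; with the M-CSF numbers crossed, an alternative chosen after seeing the data, 9, 9 and 11. Dim probe sets limit what can be seen: a decrease is hard to measure for a gene near 4.25.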
